A study of Mus musculus with 16 samples.

Results

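The L1cam-positive population of medullary thymic epithelial cells, mTEC-IV, was compared with the Itgb4-positive population, mTEC-I, for dimethylation of histone H3 at lysine 4 (H3K4me2). The comparison takes 4 of the 16 samples, 2 H3K4me2 libraries a population, and covers all 29470 merged peaks outside the mitochondrial chromosome and the 15739 genes to which they are assigned. Both populations came from thymus of C57BL/6 mice and were sorted as CD45-negative, Epcam-positive and MHC class II low. The mTEC-IV gate then took Itgb4-negative, L1cam-positive cells, and the mTEC-I gate took Itgb4-positive cells. The labels describe the samples as enriched for each population, and give neither age nor sex, nor whether the 2 libraries came from separate mice. The p-values therefore measure only the spread between these libraries, which may be technical. A second pair of populations, MHC class II high mTEC-II and Ly6D-positive mTEC-III, is used only to place the differences. The study drew its populations from single-cell transcriptomes of thymic stroma and asked how their enhancer landscapes differ.

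Medullary thymic epithelial cells display proteins of other tissues to developing T cells, so that self-reactive T cells are removed or diverted. One of their forms resembles the tuft cell, a rare chemosensory cell of gut, airway and taste epithelium that signals through taste receptors and a calcium-activated channel and releases interleukin-25, leukotrienes and acetylcholine, and that needs the transcription factor Pou2f3. Another form shares keratins and adhesion genes with basal epithelium. H3K4me2 marks promoters and enhancers that are active or ready for use. It shows where chromatin is marked and gives no measure of RNA.

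Levels are H3K4me2 tags per 10000000 tags of a library, and the level of a gene is the sum over all peaks whose nearest annotated start site is that gene's. Differences are mTEC-IV minus mTEC-I on the log2(level + 5) scale, which understates the change of low genes, with the standard error and the Benjamini-Hochberg adjusted p-value of limma, and a gene or peak was called at an adjusted p under 0.05. The mTEC-IV libraries held 9093698 and 8369277 tags, and the mTEC-I libraries 6461587 and 1702103.5. One tag was thus worth 1.10 and 1.19 in mTEC-IV, against 1.55 and 5.88 in mTEC-I. Values up to 17.6 in mTEC-I replicate 2 rest on at most 3 tags, and 1474 peaks stood at 0 there. Between 33.3% and 35.4% of tags lay in the peaks. The replicates correlated at 0.979 in mTEC-IV and 0.945 in mTEC-I over peaks, and the populations with each other at 0.704 to 0.728. In a sorted population, more cells that carry a mark and more of the mark in each cell cannot be told apart.

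The genes of the gates came first, as a check of the labels. L1cam, a cell adhesion molecule, stood at 181 and 200.1 in mTEC-IV, against 53.4 and 82.3 in mTEC-I (difference 1.45 ± 0.22 (SE), adjusted p = 2.85e-04). Itgb4, an integrin chain that anchors basal cells, stood at 225 and 224 in mTEC-IV, against 330.4 and 285 in mTEC-I (-0.44 ± 0.13 (SE), adjusted p = 0.02). Each gene was higher in the population sorted for it, without overlap. The Itgb4 difference was under 1.5-fold and its call ended without mTEC-IV replicate 1 (-0.45, adjusted p = 0.187) or replicate 2 (-0.44, adjusted p = 0.194), and the adjusted p ran from 4.45e-05 to 0.194 over 18 alternatives. Of the 2 L1cam peaks the one in intron 1 was called (chrX:71119573-71122361, mm9), where mTEC-IV held 88 and 99.8 and mTEC-I 9.29 and 5.88. At the peak over the L1cam start site the difference was 0.69 ± 0.27 (SE), adjusted p = 0.0732, past no threshold. Epcam, the epithelial adhesion gene of both gates, was higher in mTEC-IV (0.41 ± 0.07 (SE), adjusted p = 6.16e-04) through peaks upstream, and was not called once the sum was restricted to 20 kb around the start site (0.11, adjusted p = 0.467, in a range of 3.1e-10 to 0.467). The MHC class II genes H2-Aa (-0.86), H2-Ab1 (-0.56) and H2-Eb1 (-0.43) were lower in mTEC-IV, although both gates took MHC class II low cells. Ptprc encodes CD45, which both gates excluded. It stood at 269 and 265 in mTEC-IV, against 34 and 35.2 in mTEC-I (2.78 ± 0.19 (SE), adjusted p = 6.16e-07), and 2 of its 3 peaks were called higher, among them the one over a start site, with 139 and 155 in mTEC-IV and 6.19 and 0 in mTEC-I.

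Of 28835 tested peaks, 33.5% were called. mTEC-IV was higher at 6437 peaks (22.3%) and lower at 3215 (11.1%). Of 15664 tested genes 28.4% were called, 2733 higher (17.4%) and 1716 lower (11.0%), and the median difference of all genes was -0.02. Rises were larger than falls. The median called peak rose by 1.84 and fell by 1.03 on the log2 scale, and 1105 peaks rose by more than 3, while 22 fell by more than 3. Among genes 474 rose by more than 2 and 56 fell by more than 2. The authors' own peak lists held 22757 peaks for mTEC-IV and 7034 for mTEC-I. The part of that gap in the number and size of rises and falls was not tested. The balance of directions depended on the scaling. With equal totals in peaks 2415 genes were higher and 2371 lower, and with loess 5149 peaks were higher and 4447 lower. The counts also changed when single libraries were left out. Each such fit takes its residual spread from the population that keeps both libraries. Over peaks the log2 differences between replicates had an SD of 0.261 in mTEC-IV and 0.538 in mTEC-I. A call lost or gained in these fits thus does not show what the missing library contributed. Without mTEC-IV replicate 1 or replicate 2, 1886 and 1674 peaks were higher, 475 and 416 lower, 1449 and 1372 genes higher and 595 and 596 lower. Without mTEC-I replicate 1, 9300 peaks were higher and 6198 lower, and 4153 genes higher and 3481 lower. Without the shallow mTEC-I replicate 2, 7941 peaks were higher and 4956 lower, and 3358 genes higher and 2603 lower. In that fit 2678 of the 2733 higher genes and 1620 of the 1716 lower genes kept their calls.

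**Figure D1:**
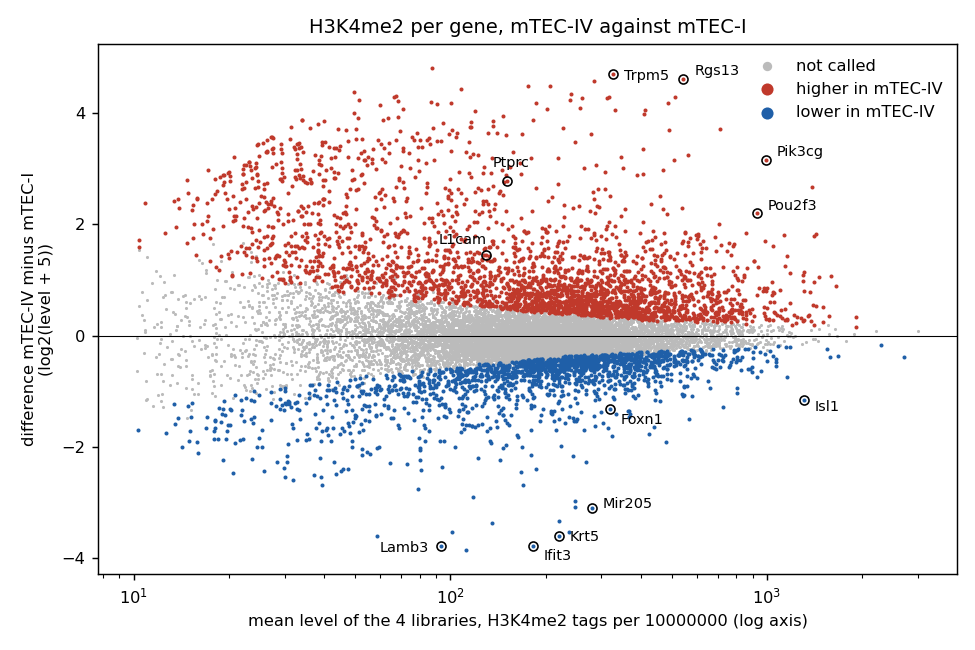
H3K4me2 of each tested gene in mTEC-IV against mTEC-I. The horizontal axis is the mean level of the 4 libraries in tags per 10000000 (log axis), the vertical axis the difference mTEC-IV minus mTEC-I in log2(level + 5), red points are called higher in mTEC-IV, blue points lower and grey points not called. Rises reach 4.81 and falls -3.85, with Trpm5 and Rgs13 near the top and Lamb3, Ifit3 and Krt5 near the bottom.

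The 10 genes with the largest rise, among called genes with a level of at least 100 in mTEC-IV and no overlap, included genes of taste and tuft cells. Trpm5, the calcium-activated channel of taste and tuft cells, stood at 603 and 662 in mTEC-IV, against 21.7 and 17.6 in mTEC-I (4.70 ± 0.18 (SE), adjusted p = 1.05e-08). Rgs13, a brake on G protein signalling, stood at 1074 and 1025 in mTEC-IV, against 44.1 and 32.3 in mTEC-I (4.62 ± 0.16 (SE), adjusted p = 5.70e-09), and its 5 peaks were all called higher. Hepacam2, a surface protein, stood at 404 and 396 in mTEC-IV, against 14.7 and 11.8 in mTEC-I (4.48). In these 3 genes the mTEC-I libraries lay far under both mTEC-IV libraries. The bitter taste receptor genes Tas2r108 (4.58) and Tas2r138 (4.49) and the sweet and umami receptor gene Tas1r3 (4.34) belong to the 10 as well. Agt, which encodes angiotensinogen, the precursor of a blood pressure hormone, stood at 199 and 219.8 in mTEC-IV, against 14.7 and 0 in mTEC-I (4.43). Cdhr2, a cadherin that links neighbouring microvilli, stood at 169.9 and 177 in mTEC-IV, against 3.10 and 0 in mTEC-I. The mTEC-I libraries held 2 tags there in all, so the ratio of 70.8 has a 95% counting interval of 19.4 to 587. Smim6, a small membrane protein gene, had 231 tags in mTEC-IV, against 3 in mTEC-I, a ratio of 36.0 (12.2 to 176). The peak nearest to Mir32 stood at 1012 and 941 in mTEC-IV, against 30.9 and 64.6 in mTEC-I (4.29 ± 0.24 (SE), adjusted p = 1.21e-07), but its centre lies at -11597 bases from that start site, in intron 9 of the transcript NM_175518.

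**Figure D2:**
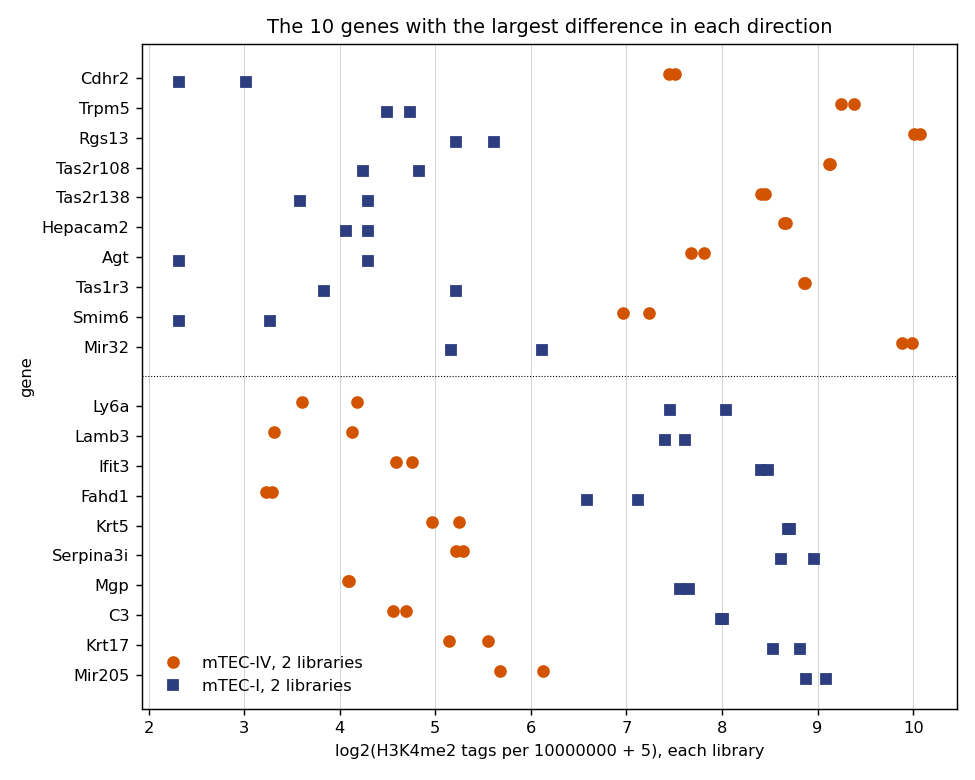
Level of each library, as log2(H3K4me2 tags per 10000000 + 5), for the 10 genes with the largest rise (upper block) and the largest fall (lower block) in mTEC-IV. Orange circles are the 2 mTEC-IV libraries and blue squares the 2 mTEC-I libraries of each gene. Circles and squares do not overlap in any of these genes, which were chosen for that, from Cdhr2 (4.81) to Mir205 (-3.09).

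Transcription factors that direct tuft cells carried more H3K4me2 in mTEC-IV. Of 10 measured regulators 9 were higher, 0 lower and 1 not called, with a median difference of 0.89 against -0.02 over all genes. Pou2f3, without which tuft cells do not form, stood at 1515 and 1542 in mTEC-IV, against 343 and 314 in mTEC-I (2.20 ± 0.08 (SE), adjusted p = 7.82e-09). All 6 of its peaks were higher, from 0.48 at a peak upstream to 4.02 at one in intron 2, where mTEC-IV held 85.2 and 102 and mTEC-I 2.32 and 0. Gfi1b, a repressor best known from blood cell formation, stood at 316 and 339.9 in mTEC-IV, against 30.2 and 32.3 in mTEC-I (3.20 ± 0.19 (SE), adjusted p = 1.96e-07). The neighbouring homeobox genes Hmx2 (1.91) and Hmx3 (1.31), Spib (0.89), an Ets factor of lymphoid and specialised epithelial cells, and the stem cell factor Ascl2 (0.89) were also higher, with adjusted p between 8.03e-06 and 0.00147. Sox9, a factor of epithelial progenitors and some tuft cells, stood at 680.1 and 683 in mTEC-IV, against 712 and 729 in mTEC-I (-0.08 ± 0.08 (SE), adjusted p = 0.498) and was not called.

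The taste transduction chain rose nearly throughout. Of 14 measured genes of this signalling chain 13 were higher and 0 lower, with a median of 3.04. Gnat3 encodes gustducin, the G protein of bitter and sweet taste, and stood at 915 and 935 in mTEC-IV, against 59.6 and 35.3 in mTEC-I (4.19 ± 0.19 (SE), adjusted p = 3.35e-08). Plcb2, the phospholipase that acts after it, stood at 600.4 and 651 in mTEC-IV, against 44.9 and 23.5 in mTEC-I (4.06 ± 0.23 (SE), adjusted p = 1.44e-07). Tas1r3 stood at 463 and 460.0 in mTEC-IV, against 9.28 and 32.3 in mTEC-I (4.34 ± 0.34 (SE), adjusted p = 1.87e-06). Gnb3 (3.04) and Gng13 (1.07), the partner subunits of gustducin, and Calhm1 (3.64), part of the channel that releases ATP from taste cells, were higher as well, as was Sucnr1 (2.94), the receptor by which tuft cells sense succinate. Itpr3, the calcium channel of the endoplasmic reticulum that acts after Plcb2, stood at 304 and 307 in mTEC-IV, against 290.2 and 367 in mTEC-I and was not called (-0.10 ± 0.13 (SE), adjusted p = 0.636).

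Bitter taste receptor genes (Tas2r) rose with the signalling chain. Of 20 measured members 18 were higher, 0 lower and 2 not called, with a median of 3.56. Their summed level was 4195 and 4087 in mTEC-IV, against 304 and 376 in mTEC-I. It was 414 and 409 in mTEC-II, and 343 and 363 in mTEC-III, so that mTEC-IV alone stood high. Tas2r108 stood at 549 and 554 in mTEC-IV, against 13.9 and 23.5 in mTEC-I (4.58 ± 0.22 (SE), adjusted p = 4.49e-08), Tas2r115 at 604 and 596 in mTEC-IV, against 29.4 and 23.5 in mTEC-I (4.27), and Tas2r118 at 286 and 275 in mTEC-IV, against 15.5 and 11.8 in mTEC-I (3.95). In all 3 genes both mTEC-IV libraries were far above both mTEC-I libraries. The exceptions were Tas2r119, at 44 and 40.6 in mTEC-IV, against 16.2 and 29.4 in mTEC-I (0.81 ± 0.34 (SE), adjusted p = 0.0966), and Tas2r143, at 33.5 and 24.5 in mTEC-IV, against 41 and 79.3 in mTEC-I (-0.89 ± 0.34 (SE), adjusted p = 0.0693). Receptor genes lie in clusters and resemble one another, and the handling of reads shared between copies is not stated in the labels.

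Pou2f3 belongs to the POU family, whose factors are known to bind an octamer with the letters ATGCAAAT. The 250 bases upstream of the start site were searched for it on both strands. RefSeq promoters (GRCm38.p6) were held for 11480 of the 15664 tested genes and for 17 bitter receptors, 12 taste signalling genes and 9 tuft cell mediators. The octamer stood in 4 of these 17, 3 of 12 and 2 of 9 promoters, against 1.81% of all 27025 genes, and in 2.53% of the genes called higher against 1.82% of those called lower. It stood in 0 of 7 tuft regulator, 0 of 11 tuft structure and 0 of 10 PI3K and lymphoid signalling promoters, and in 2 of 11 promoters of the Notch list. The taste signalling and mediator counts include Itpr3 and Il4ra, which were not called. The letters are a description and show no binding. The promoters of 4 called genes with a peak over the start site follow, read 5′ to 3′ on the gene's strand up to the last base before the start, with the octamer in capitals (in Sucnr1 also a match to the AP-1 letters TGANTCA, the earlier of its capital runs). Coordinates of these promoters are chr6:40493342-40493591, plus strand for Tas2r108, chr6:23970061-23970310, minus strand for Tas2r118, chr6:65144731-65144980, minus strand for Hpgds and chr3:60081619-60081868, plus strand for Sucnr1.
Tas2r108: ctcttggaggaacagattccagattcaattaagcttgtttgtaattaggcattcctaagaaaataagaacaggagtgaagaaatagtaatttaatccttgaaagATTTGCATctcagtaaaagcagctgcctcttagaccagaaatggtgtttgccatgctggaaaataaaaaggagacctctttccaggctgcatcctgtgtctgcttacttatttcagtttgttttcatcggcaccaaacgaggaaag
Tas2r118: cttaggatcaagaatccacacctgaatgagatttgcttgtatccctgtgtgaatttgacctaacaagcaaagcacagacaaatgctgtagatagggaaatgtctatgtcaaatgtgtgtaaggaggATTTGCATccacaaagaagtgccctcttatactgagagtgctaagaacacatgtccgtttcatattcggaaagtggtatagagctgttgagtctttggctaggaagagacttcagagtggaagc
Hpgds: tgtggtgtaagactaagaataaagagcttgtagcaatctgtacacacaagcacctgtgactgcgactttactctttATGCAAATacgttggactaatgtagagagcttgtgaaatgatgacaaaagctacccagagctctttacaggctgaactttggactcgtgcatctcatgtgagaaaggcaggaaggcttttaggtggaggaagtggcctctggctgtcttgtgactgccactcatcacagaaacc
Sucnr1: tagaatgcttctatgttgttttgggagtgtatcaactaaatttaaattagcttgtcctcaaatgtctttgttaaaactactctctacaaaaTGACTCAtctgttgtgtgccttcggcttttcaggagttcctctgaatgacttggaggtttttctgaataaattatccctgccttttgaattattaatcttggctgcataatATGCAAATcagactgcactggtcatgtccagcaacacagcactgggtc

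Genes for the signals that tuft cells release were also higher. Of 13 measured mediator genes 11 were higher and 0 lower, with a median of 1.48. Il25, the cytokine through which tuft cells call on type 2 immune cells, stood at 144 and 143 in mTEC-IV, against 23.2 and 41.1 in mTEC-I (2.04 ± 0.27 (SE), adjusted p = 1.04e-04), and Il17rb, a chain of its receptor, at 166 and 184 in mTEC-IV, against 21.7 and 29.4 in mTEC-I (2.57). Hpgds, which makes prostaglandin D2, stood at 555 and 508 in mTEC-IV, against 142 and 120.4 in mTEC-I (1.98 ± 0.13 (SE), adjusted p = 4.38e-07). These 3 genes did not overlap between the populations. With 2 libraries a side that is common, as 38 of 58 ribosomal protein genes did not overlap either. Smaller rises were measured for other prostaglandin and leukotriene genes, with Ptgs1 at 1.84, Alox5 at 1.50, Alox5ap at 1.25 and Ltc4s at 0.66. The Ltc4s call ended without either mTEC-IV library (adjusted p from 1.46e-06 to 0.091 over the alternatives). Slc18a3, the transporter that loads acetylcholine into vesicles, stood at 374 and 395 in mTEC-IV, against 13.9 and 23.5 in mTEC-I (4.07 ± 0.23 (SE), adjusted p = 1.66e-07), and one of its 2 peaks lies in intron 3 of NM_009891. Il4ra (-0.05) and Il13ra1 (0.27), chains of receptors for type 2 cytokines, were not called (adjusted p = 0.746 and 0.311).

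Structural and marker genes of tuft cells rose in 15 of 17 cases, with 0 lower and a median of 1.71. Avil, the actin-binding protein advillin, stood at 350.2 and 339 in mTEC-IV, against 20.1 and 17.6 in mTEC-I (3.87 ± 0.20 (SE), adjusted p = 9.89e-08). Lrmp, a membrane protein of the endoplasmic reticulum, stood at 1332 and 1310.1 in mTEC-IV, against 79.7 and 115 in mTEC-I (3.72 ± 0.14 (SE), adjusted p = 1.05e-08). Dclk1, the kinase used as a tuft cell marker in mouse gut, stood at 1054 and 1115 in mTEC-IV, against 513 and 535 in mTEC-I (1.04 ± 0.08 (SE), adjusted p = 1.09e-06). Siglecf (3.74), a sialic acid receptor also found on eosinophils, and the kinase gene Bmx (2.66) were higher, while Cd24a (0.14) and Svil (0.22) were not called.

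Signalling genes better known from lymphocytes rose beside them, 12 of 13 measured with 0 lower and a median of 1.63. Pik3cg, the catalytic subunit of phosphoinositide 3-kinase gamma, stood at 1817 and 1753 in mTEC-IV, against 193 and 197 in mTEC-I (3.16 ± 0.08 (SE), adjusted p = 5.59e-10), and 7 of its 8 peaks were called higher. Inpp5d, the lipid phosphatase that opposes this kinase, stood at 566 and 651 in mTEC-IV, against 29.4 and 23.5 in mTEC-I (4.29 ± 0.18 (SE), adjusted p = 1.93e-08). The regulatory subunit gene Pik3r5 (2.90), the adaptor gene Fyb (1.74), the exchange factor gene Vav1 (1.79) and the phosphatase gene Ptpn6 (1.63) were higher too. Only Lyn, a Src family kinase, was not called (0.24, adjusted p = 0.15).

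Some markers of blood cells moved with these genes, although both gates excluded CD45. All 4 measured B cell genes were higher, namely Pax5 at 169.9 and 181 in mTEC-IV, against 34.8 and 32.3 in mTEC-I (2.23 ± 0.21 (SE), adjusted p = 8.44e-06), Ebf1 (0.92), Cd79a (2.39) and Cd79b (2.16), while Ms4a1 had no peak. The summed level of this list was 1164 and 1224 in mTEC-IV, against 501 and 502 in mTEC-I, while both mTEC-II libraries (976 and 1010) lay nearer to mTEC-IV. Of 5 measured thymocyte genes 2 were higher, Themis (3.05) and Tcf7 (0.62), and Cd2 was lower (-1.23). The share called was 60.0%, against 28.4% of all tested genes. Of 15 listed thymocyte genes 10 had no peak, among them Cd3e, Cd4, Cd8a, Lck and Rag1. The list summed to 2094 and 2097 in mTEC-IV, against 2013 and 1677 in mTEC-I. The Tcf7 and Cd2 calls ended without either mTEC-IV library, with adjusted p of up to 0.177 and 0.13 over the alternatives. Of 6 tested genes of myeloid and dendritic cells only Flt3 was called (1.23), a call that ended without either mTEC-IV library (adjusted p from 1.17e-08 to 0.131 over the alternatives). Lyz2 and Xcr1 had no peak, and the list summed to 641 and 632 in mTEC-IV, against 618 and 608 in mTEC-I. Of 6 measured genes shared by blood cells, Ptprc and Laptm5 (0.95) were higher, and Spi1, Itgb2, Lcp2, Cd53 and Was had no peak. They summed to 1358 and 1314 in mTEC-IV, against 712 and 826 in mTEC-I, and without mTEC-I replicate 2 the count was 4 of 6. In mTEC-II the genes shared by blood cells summed to 1327 and 1270, and in mTEC-III to 1060 and 1034.5, so mTEC-II lay near mTEC-IV. Of these genes 33.3% were called, near the 28.4% of all tested genes. Of 11 measured endothelial genes 4 were higher, among them Cdh5 (3.17), which holds vessel walls together, and the receptor gene Tek (2.30), 1 was lower and 6 not called. The endothelial share called was 45.5%. Tie1 had no peak, and the list summed to 2321 and 2240 in mTEC-IV, against 1500 and 1481 in mTEC-I. The part of other cells in the tuft cell rises was not tested.

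Gut and liver genes were higher in 9 of 11 measured cases, with 0 lower and a median of 1.42. Thus 81.8% were called, against 28.4% of all tested genes, and Hnf4a, Foxa3, Fabp2, Alb and Apoa4 had no peak. The list summed to 3607.5 and 3776 in mTEC-IV, against 1640.5 and 1501 in mTEC-I. In mTEC-II it summed to 2910 and 2931, and in mTEC-III to 2461 and 2644, so that mTEC-I stood lowest and mTEC-IV highest. Cdx1, which directs intestinal identity, stood at 472 and 498 in mTEC-IV, against 59.6 and 96.9 in mTEC-I (2.59 ± 0.19 (SE), adjusted p = 1.17e-06), and Fabp1, a fatty acid carrier of gut and liver, at 233 and 282 in mTEC-IV, against 17 and 11.8 in mTEC-I (3.77 ± 0.25 (SE), adjusted p = 4.38e-07). The pioneer factor genes Foxa1 (1.10) and Foxa2 (0.85) were higher. Hox genes, which set position along the body axis, were higher in 25 of 32 measured members, lower in 1 and not called in 6, with a median of 1.54. The count was 17 without mTEC-IV replicate 1 and 14 without mTEC-IV replicate 2. The Hox list summed to 4807 and 5006 in mTEC-IV, against 2841 and 2659 in mTEC-I. In mTEC-II it summed to 4467 and 4403, and in mTEC-III to 4025 and 4181, so that mTEC-I alone stood low. Within the Hoxa cluster neighbours went opposite ways. Hoxa2 stood at 409.6 and 433 in mTEC-IV, against 1093 and 969 in mTEC-I (-1.28 ± 0.09 (SE), adjusted p = 6.15e-07), and Hoxa3 at 214 and 194 in mTEC-IV, against 35.6 and 47 in mTEC-I (2.19 ± 0.21 (SE), adjusted p = 9.06e-06). Hoxa3, a gene that thymus formation requires, was thus higher in mTEC-IV, and Hoxa2 was the only member called lower.

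**Figure D3:**
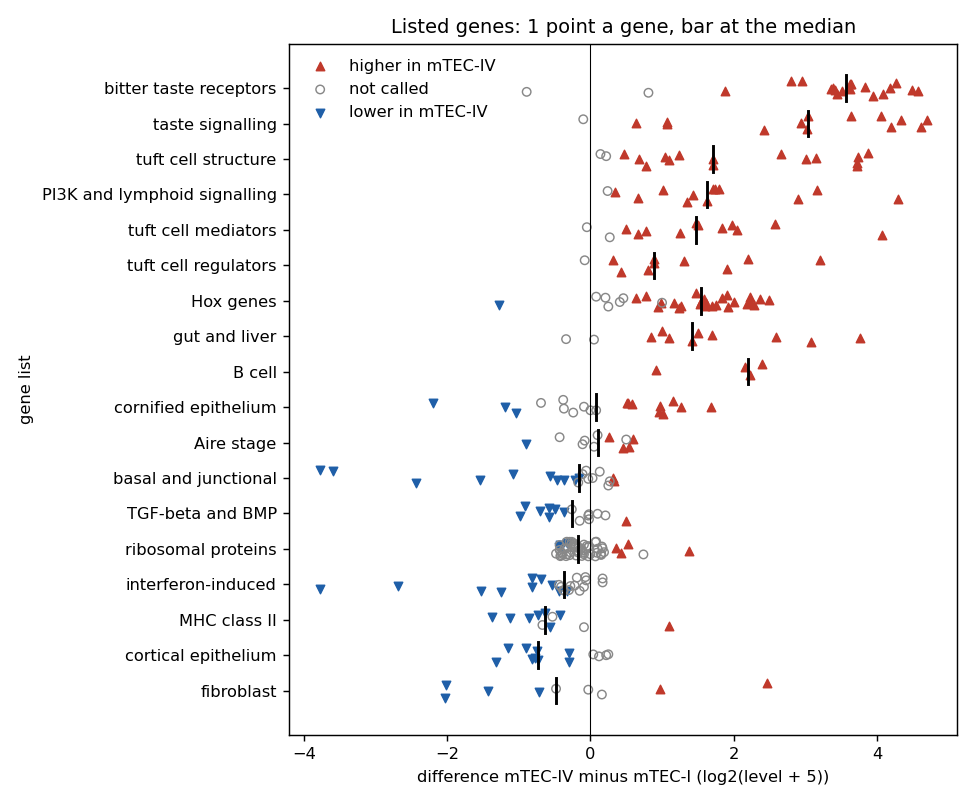
Difference mTEC-IV minus mTEC-I, in log2(level + 5), of each measured gene of 18 lists. Red triangles pointing up are called higher in mTEC-IV, blue triangles pointing down lower, open grey circles not called, and the black bar is the list's median. Bitter receptors (median 3.56) and taste signalling (3.04) stand to the right and cortical epithelium (-0.73) and MHC class II (-0.64) to the left.

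Several genes of basal epithelium were lower in mTEC-IV, which is to say higher in mTEC-I. Krt5, the keratin typical of basal cells, stood at 33 and 26.3 in mTEC-IV, against 413 and 408 in mTEC-I (-3.59 ± 0.19 (SE), adjusted p = 9.03e-08). Lamb3, which encodes the beta chain of laminin-332 in basement membranes, was at 4.95 and 12.6 in mTEC-IV, against 164 and 191 in mTEC-I (-3.78 ± 0.32 (SE), adjusted p = 3.11e-06), and Krt17, a keratin of basal and stressed epithelium, at 41.8 and 30.5 in mTEC-IV, against 444 and 364 in mTEC-I (-3.32 ± 0.20 (SE), adjusted p = 2.12e-07). In all 3 genes both mTEC-IV libraries were low and far under both mTEC-I libraries. Krt14 (-2.44), Pdpn (-1.54), a surface glycoprotein, and Lifr (-0.57), a cytokine receptor, were lower too. The list as a whole was mixed, since of 20 measured members 10 were lower, 2 higher and 8 not called, around a median of -0.17. The alpha chain gene of the same laminin, Lama3 (0.25), was not called, nor were the integrin genes Itga6 (-0.06) and Itga3 (0.27). Without mTEC-IV replicate 1 the list had 5 lower genes and 1 higher, without replicate 2 none higher, and without mTEC-I replicate 1, 5 higher. Trp63, the regulator of stratified epithelium, differed little in sum (-0.21 ± 0.07 (SE), adjusted p = 0.04), a call that ended under 6 of 18 alternatives (adjusted p from 9.15e-05 to 0.343).

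Mir205, a microRNA gene of stratified epithelium, stood at 64.9 and 46 in mTEC-IV, against 540.1 and 467 in mTEC-I (-3.09 ± 0.18 (SE), adjusted p = 1.86e-07), and its main peak covers the start site (chr1:195332315-195336973, mm9). The mature products, from chromosome 1, minus strand (RefSeq, GRCm38.p6), are shown because this was the microRNA gene among the 10 largest falls. Capitals mark the seed, bases 2 to 8, which pairs with target RNAs.
mmu-miR-205-5p: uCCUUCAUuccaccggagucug
mmu-miR-205-3p: gAUUUCAGuggagugaagcuca

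Of the remaining genes among the 10 largest falls Ly6a, the surface antigen Sca-1, stood at 7.15 and 13.1 in mTEC-IV, against 258 and 170.4 in mTEC-I (-3.85 ± 0.30 (SE), adjusted p = 1.77e-06). Mgp, an inhibitor of matrix calcification, stood at 12.1 and 11.9 in mTEC-IV, against 184 and 197 in mTEC-I (-3.52), and C3, the central complement protein, at 20.9 and 18.5 in mTEC-IV, against 252 and 249.7 in mTEC-I (-3.37). Serpina3i (-3.53), a protease inhibitor gene with close copies, and Fahd1 (-3.59), a mitochondrial enzyme gene whose peak lies at the end of the transcript, complete the 10 with Ifit3. Of the fibroblast list Dcn (-2.03), Col6a1 (-1.43), Col6a2 (-2.01) and Pdgfra (-0.72) were lower, and Pdgfrb (2.47) and Twist1 (0.97) higher. Without either mTEC-IV library the Twist1 call ended, and without mTEC-IV replicate 1 also that of Pdgfra. Of 9 measured genes of that list 4 were lower, 2 higher and 3 not called, and Col1a2, Col3a1, Lum and Twist2 had no peak. Its summed level was 953 and 1006 in mTEC-IV, against 1222 and 1287 in mTEC-I. The part of fibroblasts in these falls was not tested.

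Interferon-induced genes were lower in mTEC-IV in 10 of 24 measured cases, with 0 higher, 14 not called and a median of -0.37. Thus 41.7% were called, against 28.4% of all tested genes. The list summed to 6028 and 6069 in mTEC-IV, against 8481 and 8260 in mTEC-I. In mTEC-II it summed to 5255 and 5395, and in mTEC-III to 5921 and 6046, so that mTEC-I alone stood high. Ifit3, an antiviral protein gene, stood at 22 and 19.1 in mTEC-IV, against 353 and 335 in mTEC-I (-3.77 ± 0.20 (SE), adjusted p = 1.12e-07). Mx1, a GTPase that blocks viruses, stood at 40.7 and 41.8 in mTEC-IV, against 351 and 244 in mTEC-I (-2.69 ± 0.21 (SE), adjusted p = 1.65e-06), and Ifit2, a neighbour of Ifit3 in the same family, at 139 and 112 in mTEC-IV, against 361 and 382 in mTEC-I (-1.53 ± 0.14 (SE), adjusted p = 8.14e-06). Irf9 (-0.09) and Irf7 (-0.06), genes for factors of the interferon response, were not called (adjusted p = 0.579 and 0.824). Leaving out mTEC-IV replicate 1 or replicate 2 left 5 and 6 lower genes. The core of the interferon-stimulated response element, with the letters GAAANNGAAA on either strand, stood in 11 of the 19 promoters held for this list, against 3.46% of all. It stood in 4 of 7 promoters of the genes called lower and 7 of 12 of those not called. The promoter of Ifit3 (RefSeq, GRCm38.p6, chr19:34583279-34583528, plus strand) is shown because Ifit3 had the largest fall of the list and a peak over its start site. The first pair of capital runs marks the element, and the last run a match to the AP-1 letters TGANTCA.
Ifit3: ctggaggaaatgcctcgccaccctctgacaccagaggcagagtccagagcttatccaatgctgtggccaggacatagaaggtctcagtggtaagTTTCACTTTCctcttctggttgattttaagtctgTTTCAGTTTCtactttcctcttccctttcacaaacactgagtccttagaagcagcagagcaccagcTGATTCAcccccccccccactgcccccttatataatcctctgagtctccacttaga

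Genes of MHC class II antigen presentation were mostly lower in mTEC-IV. Ciita, the master activator of MHC class II genes, stood at 147 and 162 in mTEC-IV, against 354 and 329 in mTEC-I (-1.12 ± 0.13 (SE), adjusted p = 4.53e-05), and Cd74, the invariant chain, at 179 and 149 in mTEC-IV, against 388 and 476 in mTEC-I (-1.37 ± 0.14 (SE), adjusted p = 1.72e-05). Both genes were lower in both mTEC-IV libraries than in either mTEC-I library. Of 11 measured genes of the pathway 7 were lower and 3 not called, with a median of -0.64. H2-Eb2 alone was higher, at 97.3 and 112 in mTEC-IV, against 51.1 and 41.1 in mTEC-I (1.10 ± 0.23 (SE), adjusted p = 0.00332), a call that ended without either mTEC-IV library (adjusted p from 9.85e-09 to 0.135 over the alternatives). Among 10 measured MHC class I genes 3 were lower and 0 higher, a share called near the 28.4% of all tested genes, with none lower without mTEC-IV replicate 1 or replicate 2, and 5 lower without mTEC-I replicate 2. Genes of cortical thymic epithelium were lower in 9 of 13 measured cases with 0 higher, and in 4 and 5 without mTEC-IV replicate 1 or replicate 2. Foxn1, the master regulator of thymic epithelium, stood at 175 and 185 in mTEC-IV, against 460.4 and 455 in mTEC-I (-1.32 ± 0.12 (SE), adjusted p = 4.21e-06), Il7, the growth factor of early T cells, at 868 and 858 in mTEC-IV, against 1462 and 1425 in mTEC-I (-0.74 ± 0.06 (SE), adjusted p = 3.77e-06), and Cxcl12, a chemokine that draws thymocytes, at 178 and 187 in mTEC-IV, against 323 and 306 in mTEC-I (-0.77). The list's median was -0.73. Genes of the Aire stage were mixed, with 4 of 11 higher, 1 lower and 6 not called, so that 45.5% were called against 28.4% of all tested genes. Cd274, which encodes PD-L1, was higher (0.54 ± 0.06 (SE), adjusted p = 2.83e-05), Cd40, a costimulatory receptor, was lower (-0.90 ± 0.15 (SE), adjusted p = 5.84e-04), and Aire had no peak. Without either mTEC-IV library 2 of 11 were higher, and without mTEC-I replicate 1, 3 were lower.

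Cornified epithelium gave calls in both directions, 9 higher, 3 lower and 7 not called among 19 measured. Of these genes 63.2% were called, against 28.4% of all tested genes. Klf4 (0.97) and Ehf (1.15), factors of differentiating epithelium, were higher, with adjusted p = 2.76e-07 and 1.21e-07. Krtdap, a secreted protein of differentiating keratinocytes, was lower, at 14.3 and 7.17 in mTEC-IV, against 54.2 and 79.3 in mTEC-I (-2.20). Without mTEC-IV replicate 1 or replicate 2 the higher count was 4 and 3, and the lower count was 1 without mTEC-IV replicate 2 and 5 without mTEC-I replicate 2. Among 15 junction and simple epithelium genes 7 were higher and 2 lower, so that 60.0% were called. Cldn7 (1.41), Cldn3 (1.02) and Krt19 (1.22) were higher, and Krt7 (-1.16) and Cldn1 (-0.85) lower. Ribosomal protein genes, a housekeeping set, had 4 higher, 4 lower and 50 not called of 58, with a median of -0.17. Thus 13.8% were called, against 28.4% of all tested genes. With equal totals in peaks 2 were higher and 9 lower. None were lower without mTEC-IV replicate 1 or replicate 2, 20 without mTEC-I replicate 1 and 7 without mTEC-I replicate 2.

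Differences were most frequent away from start sites. Within 1 kb of a start site 16.5% of 11290 peaks were called, against 44.4% of 17545 farther away and 33.5% of all. Near start sites 7.24% were higher and 9.25% lower, and more than 50 kb away 36.0% were higher and 12.8% lower. The part of the unequal peak lists of the 2 populations in that split was not tested. Peaks near start sites had higher levels, with a median of 156 against 49.0 for those over 1 kb away, and the same order held within each of 4 equal bins of mean level. In the highest bin 16.2% of 4805 near peaks were called against 38.6% of 2404 distant peaks, and in the lowest bin 33.3% of 453 against 51.4% of 6756. With a limit of 2 kb 19.1% of 13129 near peaks were called. Without mTEC-IV replicate 1 or replicate 2, the numbers called within 1 kb fell to 278 and 243, against 1861 with all 4 libraries. Farther away they fell to 2083 and 1847. Without mTEC-I replicate 1 or replicate 2 the near counts were 4461 and 2933.

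**Figure D4:**
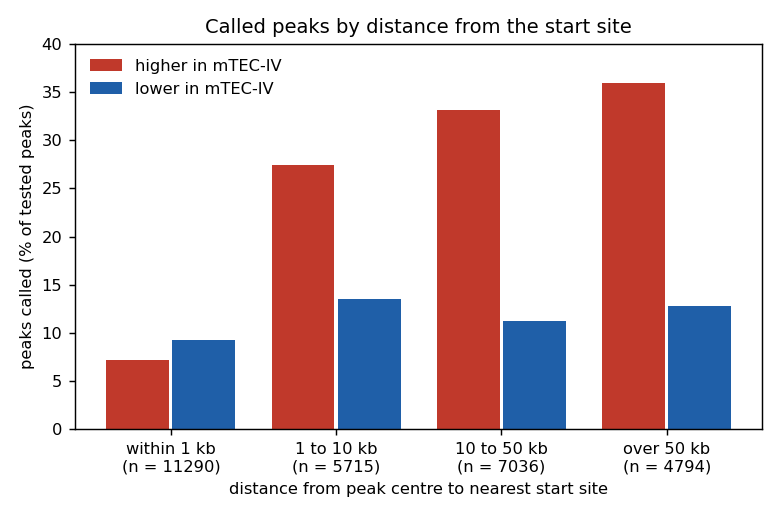
Share of tested peaks called higher (red) and lower (blue) in mTEC-IV, in percent, by the distance of the peak centre from the nearest annotated start site. The higher share runs from 7.24% within 1 kb to 36.0% over 50 kb, while the lower share lies between 9.25% and 13.5%.

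The called peak of smallest p was a broad one in intron 1 of Mctp1, a calcium-binding membrane protein gene (chr13:76676582-76696438, mm9). It stood at 1786 and 1754 in mTEC-IV, against 82.8 and 91.1 in mTEC-I (4.27 ± 0.10 (SE), adjusted p = 5.91e-08), while the peak over the Mctp1 start site was not called (0.27). The next were the Trpm5 peak (chr7:150272551-150280735), a Runx1 peak (chr16:92823268-92831950), a peak over the start of 1810046K07Rik (chr9:51128068-51138422) and the Inpp5d peak (chr1:89516328-89527042), with differences of 4.70, 3.98, 4.25 and 4.29 and adjusted p = 1.95e-06 each. In the other direction the 5 peaks of smallest p were nearest to Iigp1 (-2.52), an interferon-inducible GTPase gene, Serpina3i (-3.53), Ifit3 (-3.77), Pfkfb3 (-3.27), a regulator of glycolysis, and Mill1 (-3.94), an MHC class I-like gene. Their adjusted p lay between 1.95e-06 and 5.42e-06.

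Peaks of a gene often differed from one another. Of 6361 genes with at least 2 tested peaks, 679 had a peak called in each direction. This count was 40 without mTEC-IV replicate 1, 29 without mTEC-IV replicate 2, 1524 without mTEC-I replicate 1 and 1154 without mTEC-I replicate 2. Among 1983 genes with at least 2 called peaks, 1047 had all of them higher and 257 all of them lower. Runx1, a factor of blood and epithelium with more than one start site, differed between them. At its distal start site (chr16:92823268-92831950, mm9) H3K4me2 stood at 590.0 and 675 in mTEC-IV, against 35.6 and 35.2 in mTEC-I (3.98 ± 0.15 (SE), adjusted p = 1.95e-06). At its other start site (chr16:92691728-92701415) it stood at 679 and 611 in mTEC-IV, against 732 and 676 in mTEC-I (-0.13 ± 0.09 (SE), adjusted p = 0.31). Nfib, a nuclear factor I gene, had 4 peaks higher and 4 lower and no difference past the threshold in sum (-0.06, adjusted p = 0.591). The higher ones lay inside the gene, such as chr4:81948030-81951579 (1.57), and the lower ones over the start site and upstream, such as chr4:82201253-82202307 (-2.80). Trp63 had 2 peaks higher, in introns before its downstream start site, such as chr16:25750712-25754018 (1.89), and 2 lower, including the one over that start site (-0.77). Isl1, a homeobox gene of endocrine and neural cells, had 7 of 8 peaks lower and stood at 814 and 808 in mTEC-IV, against 1907 and 1701 in mTEC-I in sum (-1.15 ± 0.07 (SE), adjusted p = 2.30e-07). Cdkal1, a tRNA-modifying enzyme gene, had 10 of 16 peaks higher and 0 lower.

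**Figure D5:**
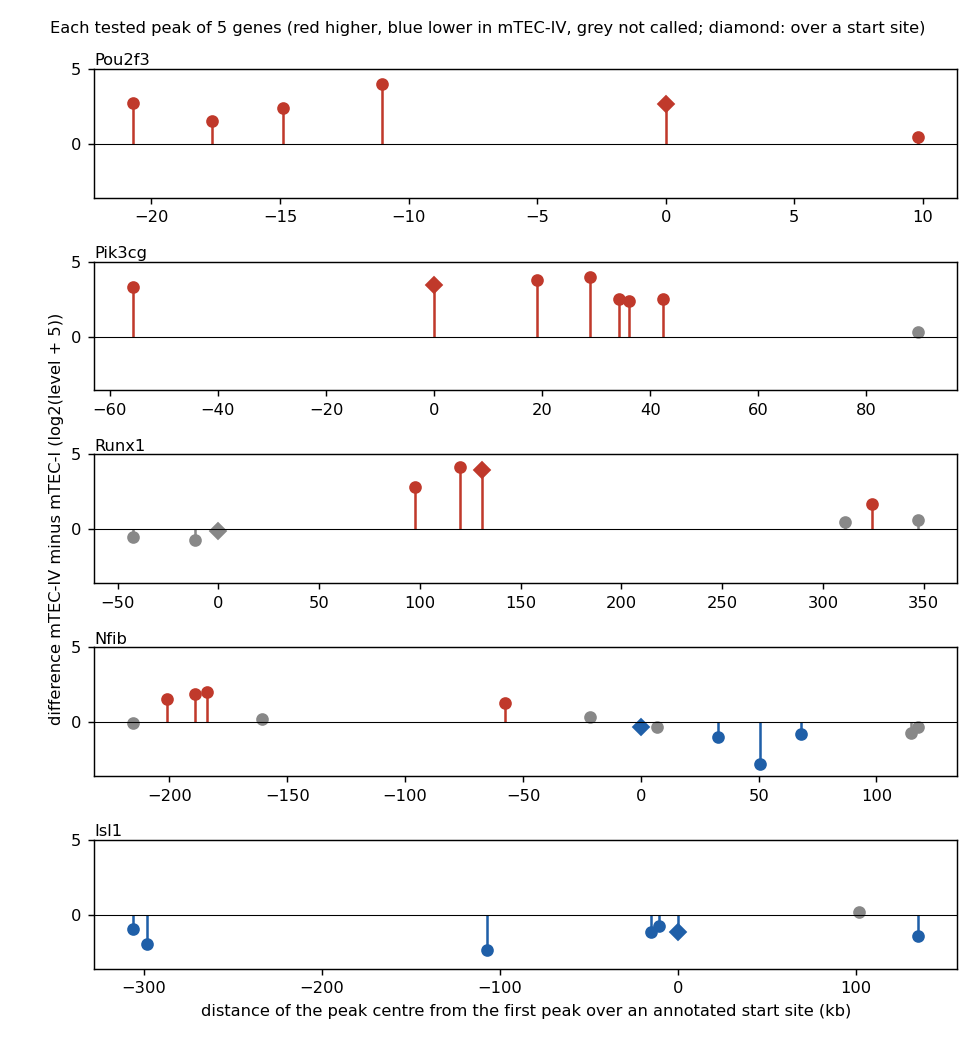
Difference mTEC-IV minus mTEC-I, in log2(level + 5), of each tested peak of Pou2f3, Pik3cg, Runx1, Nfib and Isl1, against the distance in kb of its centre from the first peak that covers an annotated start site of the gene, positive towards higher coordinates. Red marks peaks called higher in mTEC-IV, blue lower, grey not called, and diamonds peaks over a start site. Pou2f3 and Pik3cg are higher throughout apart from 1 Pik3cg peak, Runx1 differs between its start sites (-0.13 and 3.98), Nfib holds both directions and Isl1 is lower at 7 of 8 peaks.

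At most of the peaks that were higher in mTEC-IV the 2 other populations lay nearer to mTEC-I. At the 6437 peaks higher in mTEC-IV, mTEC-II was nearer to mTEC-I at 64.1% and mTEC-III at 64.4%, and both were nearer to mTEC-I at 53.1%. At the 3215 lower peaks the shares were 56.7%, 49.1% and 34.0%. Trpm5 stood at 37.3 and 34.4 in mTEC-II and 24 and 26.5 in mTEC-III, close to its mTEC-I level. Ifit3 stood at 57.1 and 60.7 in mTEC-II and 55.5 and 61.2 in mTEC-III, between mTEC-IV and mTEC-I. Krt5 stood at 99.9 and 85.5 in mTEC-II and 179.8 and 187 in mTEC-III, also between them. Krt17, in contrast, was nearly as high in mTEC-III (341 and 396) as in mTEC-I, and so low in mTEC-IV among the 4 populations. Cdx1 was high in mTEC-II (407 and 413) and mTEC-III (230.2 and 281) as well as in mTEC-IV, and low in mTEC-I. These levels are a description, since the peaks were picked by the comparison of mTEC-IV with mTEC-I.

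The authors' deposited lists hold peaks called on both replicates of a population together. Outside the mitochondrial chromosome there were 22757 peaks for mTEC-IV, with a median length of 1759 bases and a median fold over control of 16.4, against 7034 for mTEC-I, with 2139 bases and 19.8. Of the mTEC-IV peaks 30.3% overlapped an mTEC-I peak by at least 1 base, and of the mTEC-I peaks 98.5% overlapped an mTEC-IV peak. The lists differ in length more than 3-fold, and the mTEC-I libraries held fewer tags. The part of depth in that gap was not tested.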

How the data were processed

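The deposited merged table gives the H3K4me2 signal of each library in each peak as tags per 10000000 tags, made with HOMER annotatePeaks on mm9, per the file headers. In the deposited peak lists the fold over control and its p-value are the authors' own. bcl2fastq 2.15.0.4 and Picard 1.108 were used, per the submitters' processing notes, and the aligner is not named in these sources.

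The 4 libraries were compared with limma 3.58.1 (R 4.3.3) on log2(level + 5), with an intensity-dependent prior variance, for peaks or genes with a mean of at least 10. P-values were Benjamini-Hochberg adjusted over all peaks or all genes. Levels are whole multiples of a 0.5-tag step, so edgeR 4.0.16 and DESeq2 1.42.0 were run on the recovered counts as alternatives. Scripts were tested on simulated data. The 30 gene lists and the comparison were chosen with earlier results of these data known. Named genes are the 10 largest differences in each direction with no overlap and a level of at least 100 in the higher population. Others are the gate genes, the members of smallest p in each list, and list members chosen by role. The small p-values and separated libraries of many named genes thus partly reflect that choice. Peaks in mitochondrial DNA were left out. Counting intervals and floors (3 tags) cover counting error only. Some members of the lists are not reported by name here.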

Additional observations from a re-analysis of the deposited data

Results flagged for a closer look

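The mitochondrial peaks, which the comparison leaves out, held 373 and 454 tags per 10000000 in mTEC-IV, against 828 and 25225 in mTEC-I. The value of 25224.7 in mTEC-I replicate 2, the library with the fewest tags, exceeds those of the 7 other H3K4me2 libraries, which lie between 275 and 3904. Its part in the comparison was not tested. Without that library 2678 of the 2733 higher genes and 1620 of the 1716 lower genes were still called.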

How the results depend on the processing

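The results were recomputed under 18 alternatives. Leaving out each library in turn gave 1674 to 9300 peaks higher and 416 to 6198 lower, 1372 to 4153 genes higher and 595 to 3481 lower, 243 to 4461 called peaks within 1 kb of a start site and 1847 to 11037 farther away, 29 to 1524 genes with peaks in both directions, and 42 to 107 listed genes lower. The lone library left in a population is then assumed to vary like the pair of the other population, which alone sets the residual spread. With voom and sample weights 5027 peaks were lower, 2856 called peaks lay within 1 kb and 1020 genes had both directions. That last count was 416 with a mean of at least 30 and 1025 with all 8 libraries in the fit. Overlap with an mTEC-I peak held for 29.0% of mTEC-IV peaks both with an overlap of 50% of the shorter peak and with a fold over control of at least 10, and the converse for 94.4% and 88.4% of mTEC-I peaks. With the replicate number as a block 6848 peaks were higher and 3534 lower, and 2834 genes higher and 1774 lower. Same-numbered libraries did not deviate together (r = -0.02 over peaks). That value rests on 1 replicate difference in each population, and the mTEC-I difference includes the shallow replicate 2. It cannot show whether same-numbered libraries came from the same mice. Over 198 named genes and peaks, 3401 of 3540 values kept direction and call, 73 lost the call, 61 gained one and 5 changed sign. Those were Nfkbia (-0.12), Rpl31 (-0.29), Rps27a (-0.08) and Tgfbr2 (-0.20) with sums restricted to 20 kb around the start site and Pde4b (-0.18) with loess. The cause was not tested. Values under 17.6 in mTEC-I replicate 2 rest on fewer than 3 tags.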

Other observations

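Genes of the BMP and TGF-beta pathways were mostly lower in mTEC-IV where they were called, 7 of 15 with 1 higher, 7 not called and a median of -0.26. Thus 53.3% were called, against 28.4% of all tested genes. The list summed to 6973 and 6873 in mTEC-IV, against 8253 and 8313 in mTEC-I. In mTEC-II it summed to 6806 and 7050.5, and in mTEC-III to 6774 and 7346, so that mTEC-I alone stood high. Id1, a target gene of BMP signalling, stood at 252 and 235 in mTEC-IV, against 494 and 473 in mTEC-I (-0.98 ± 0.11 (SE), adjusted p = 2.79e-05), and its relative Id3 at 412 and 343 in mTEC-IV, against 697 and 737 in mTEC-I (-0.92 ± 0.10 (SE), adjusted p = 3.15e-05). Bmp7, a ligand, stood at 542 and 543 in mTEC-IV, against 753 and 878 in mTEC-I (-0.58), and Tgfbr2, a receptor chain, was the one higher (0.50, though -0.20 within 20 kb of its start site). Without mTEC-IV replicate 1 the lower count was 4.

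Wnt pathway genes split, with 3 of 15 higher and 4 lower, so that 46.7% were called. Over all tested genes 28.4% were called, 17.4% higher and 11.0% lower. Lgr5, a receptor of stem cells, was higher at 418 and 419 in mTEC-IV, against 259 and 214 in mTEC-I (0.81), while the ligand gene Wnt4 (-1.03) and the receptor gene Fzd2 (-1.57) were lower. Without mTEC-IV replicate 2 only 1 was higher, and without mTEC-I replicate 1, 6. Of 14 Notch pathway genes 2 were higher and 5 lower, with Jag1, a ligand, at -0.43 and Hey1, a target gene, at -0.59. Without mTEC-IV replicate 1 or replicate 2 the lower count was 3 and 2 and the higher count 1 and 0. Of 15 genes of the NF-kB pathway, which medullary epithelium needs, 2 were higher, 2 lower and 11 not called, a share called near the 28.4% of all tested genes. The counts were 1 higher and 1 lower without either mTEC-IV library, and 4 higher and 5 lower without mTEC-I replicate 1.

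Pax6, a factor of endocrine and eye cells, was higher at 656 and 679 in mTEC-IV, against 325 and 273 in mTEC-I (1.15 ± 0.11 (SE), adjusted p = 6.73e-06), while Isl1 of the same neuroendocrine list was lower. Sox8, a factor of microfold cells, was higher at 252 and 235 in mTEC-IV, against 78.2 and 82.3 in mTEC-I (1.54 ± 0.16 (SE), adjusted p = 1.95e-05). The microfold list was split, as its 5 tested members gave 2 rises, 1 fall and 2 genes without a call. The fall was that of Tnfaip2, a call that ended under 2 of 18 alternatives. The other rise, of Ccl20, lost its call under 5 of 16 alternatives. Ccl9 was not called, and Gp2 had no peak. Of 390 tested microRNA genes 141 were higher, 49 lower and 200 not called, so that 48.7% were called against 28.4% of all tested genes. Peaks are assigned to the nearest start site and can lie far from it, as the Mir32 peak does. Of all peaks over 1 kb from a start site 44.4% were called, against 16.5% of those within 1 kb. The part of peak position in the microRNA share was not tested. Chromosome X held the fewest called peaks by share, 11.9% of 547 against 33.5% of all.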
